A study of Canis lupus familiaris with 13 samples.

Results

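A set of 10 genes of receptor tyrosine kinase signalling was followed through 13 primary soft tissue sarcomas of dogs: the PDGF receptors PDGFRA and PDGFRB, their ligands PDGFA, PDGFB, PDGFC and PDGFD, the receptors KIT, MET and AXL, and HGF, the ligand of MET. They were chosen by gene symbol, and every probe set that the platform annotation gives to 1 of these symbols was used. This gave 14 probe sets for the 10 genes, out of 43035 probe sets and 15115 named genes on the array. PDGFRB, PDGFB, KIT and AXL had 2 probe sets each, of which the one of higher mean is called the first, and the other 6 genes had 1. The NCBI gene IDs in the annotation are 442860 for PDGFRA, 442985 for PDGFRB, 491597 for PDGFA, 442986 for PDGFB, 482666 for PDGFC, 479460 for PDGFD, 403811 for KIT, 403438 for MET, 403441 for HGF and 484490 for AXL. The tumours were untreated biopsies of domestic dogs, 5 from the metastatic group (labelled MET1 to MET5, and called metastatic tumours 1 to 5 here to keep them apart from the gene MET) and 8 from the non-metastatic group (NM1 to NM8), which had shown no metastasis for at least 1 year. Total RNA was labelled by a protocol that starts at the 3′ end of transcripts and read on an Affymetrix canine array as log2 intensities, so that a difference of 1 is a doubling. The labels give no breed, age, sex or tumour subtype. They do not say whether each tumour came from a separate dog, so a p-value here covers only the spread among these arrays.

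PDGFs are dimeric growth factors that bring receptor chains together at the cell surface and switch on their kinase domains. PDGFRA and PDGFRB are typical of connective tissue cells, and PDGFRB of pericytes, the cells that wrap small vessels. KIT, the receptor for stem cell factor, is needed by mast cells. MET responds to HGF, which mesenchymal cells secrete, and AXL responds to GAS6. PDGFRA, PDGFRB and KIT are related receptors and are inhibited by some of the same kinase inhibitor drugs.

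Several features of the arrays bear on what follows. Bacterial poly-A transcripts, added to RNA before labelling, gave strong signal at both ends on 9 arrays, here called spike-in class A, which held all 5 metastatic tumours and non-metastatic tumours 5 to 8. They gave little signal in the 3 tumours of class B (non-metastatic tumours 1, 3 and 4), and class C was non-metastatic tumour 2 alone, where the 3′ end of the spike-ins was read 3.54 higher than the 5′ end. Classes B and C held no metastatic tumour, so comparisons were repeated within class A. On class B arrays the spike-in probe sets themselves read between 2.63 and 7.16, with a median of 4.45 and a 90th percentile of 6.42. The whole range, up to its highest value, is used as the range of values that probe sets gave without a target. RNA quality, read as the 3′ minus 5′ value of ACTB, was 1.86 ± 0.33 in metastatic tumours and 1.54 ± 0.68 in non-metastatic tumours (SD, n = 5 and 8), with an exact two-sided permutation p of 0.361. This value divided by class: the tumours of class B had the lowest readings, 0.805 to 1.21, and class C the highest, 2.845. The same permutation test gave p = 0.381 within class A and p = 0.068 without non-metastatic tumour 2. Of 8 connective tissue markers, 0 were confined to the no-target range: COL1A1 averaged 13.17 in metastatic and 13.16 in non-metastatic tumours. LUM ranged from 5.75 to 12.83 in non-metastatic tumours. In bulk biopsies such values do not show which cells carry the markers, so they do not establish the identity of the tumour cells. Of these 8 markers DCN, THY1 and FAP were lower in metastatic tumours, and DCN fell by 1.28 (limma adjusted p = 0.0043). Within class A, DCN passed (limma adjusted p = 0.035) and THY1 and FAP did not (limma adjusted p = 0.133 and 0.174), and THY1 and FAP each passed in 3 of 13 fits that left out 1 tumour. The mean connective tissue marker level was 11.31 to 12.68 in metastatic and 12.13 to 13.03 in non-metastatic tumours, and its part in the results below was not tested. Among endothelial, macrophage, lymphocyte, platelet and skeletal muscle markers 0 passed, and MITF was the 1 of 4 Schwann cell and melanocyte markers that did, lower in metastatic tumours.

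Across the set, 12 of the 14 probe sets had a higher mean in metastatic tumours, but 0 of 14 passed an adjusted p of 0.05 (limma, Benjamini-Hochberg over 42924 probe sets), where 4.9% of all probe sets did. Within spike-in class A 0 of 14 passed, against 2.78% of all. The groups overlapped for 14 of 14, where 2.63% of all probe sets did not overlap. At an unadjusted p of 0.05, 4 of 14 were higher over all tumours (PDGFA, the first probe set of PDGFB, MET and the first of AXL), where 12.0% of all probe sets were higher, and 1 of 14, PDGFA, was higher within class A, where 9.12% were. The share of positive differences over all probe sets was 55.1%. The median difference, metastatic minus non-metastatic, was 0.42 over the 14 and 0.045 over all probe sets, and within class A it was 0.22 over the 14 and 0.0345 over all. In these bulk biopsies fewer cells of a type and less RNA per cell cannot be told apart.

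**Figure D1:**
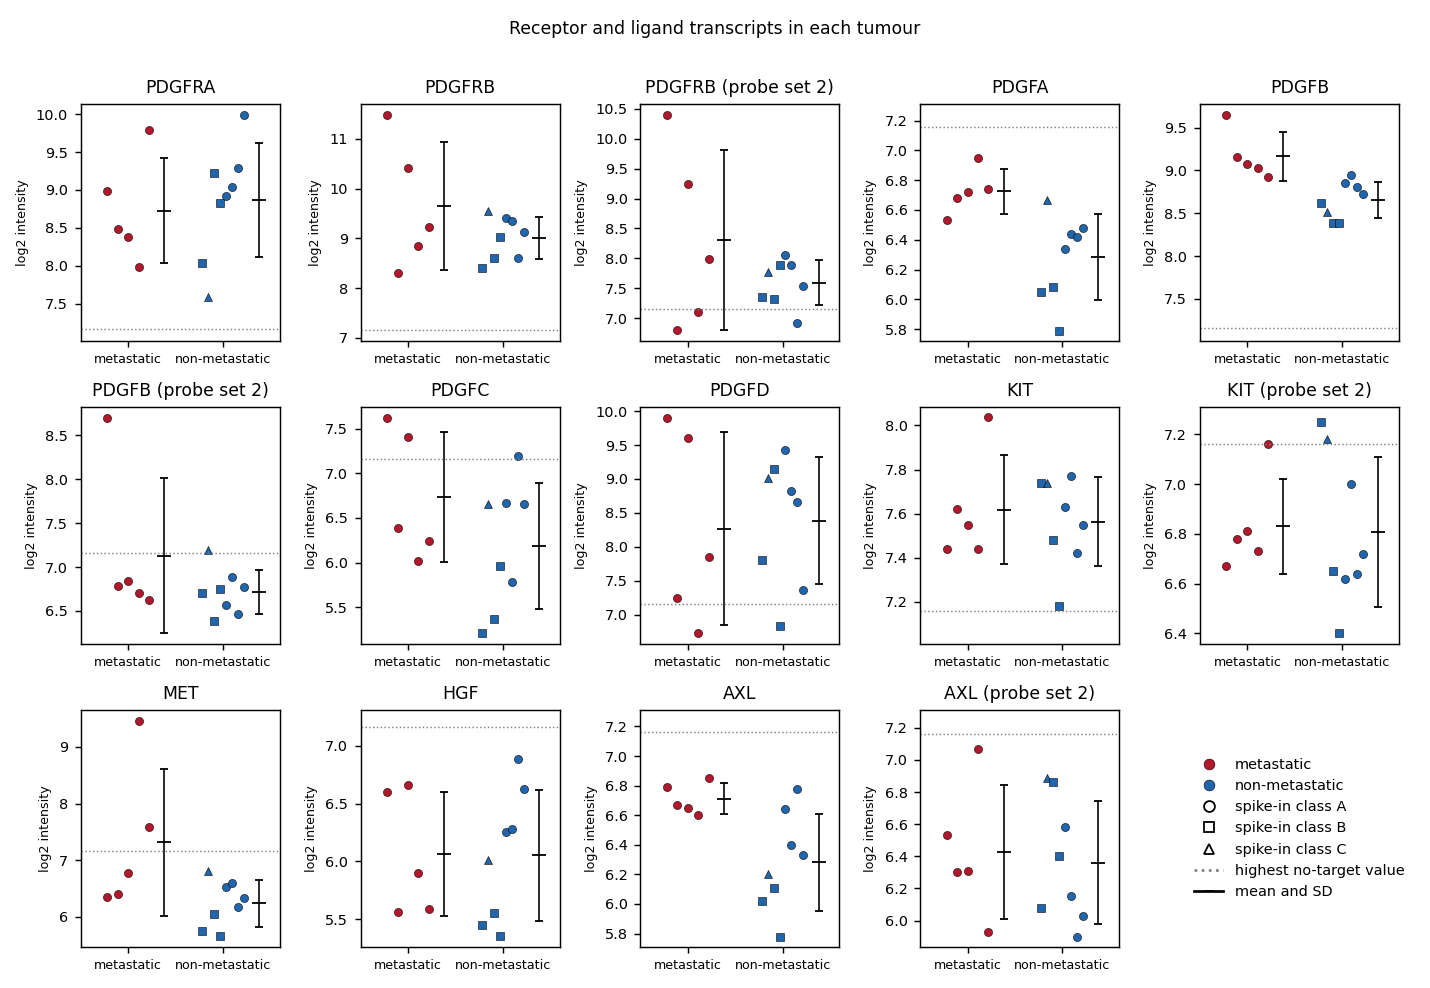
Log2 intensity of each of the 14 probe sets (1 panel each) in the 5 metastatic tumours (left of each panel) and the 8 non-metastatic tumours (right), 1 point per tumour, with the mean and SD of each group beside its points and the highest no-target value as a dotted line; point shape gives the spike-in class. For PDGFRB, the values of metastatic tumours 1 and 3 (11.48 and 10.41 at the first probe set) lie above all 8 non-metastatic tumours, and for MET those of metastatic tumours 4 and 5 (9.46 and 7.58) do.

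PDGFRB was the receptor with the widest range among metastatic tumours. Its first probe set read 11.48, 8.31, 10.41, 8.84 and 9.23 in metastatic tumours 1 to 5, against a lowest value of 8.41, a median of 9.080 and a highest of 9.55 in the 8 non-metastatic tumours. Metastatic tumours 1 and 3 stood above every non-metastatic tumour, and metastatic tumour 2 stood below every one. The means were 9.65 ± 1.28 in metastatic and 9.01 ± 0.43 in non-metastatic tumours (SD), a difference of 0.64 (SE 0.43, 95% interval -0.28 to 1.57, limma adjusted p = 0.367), or 1.56-fold. Without metastatic tumour 1 the difference was 0.185, and without metastatic tumour 2 it was 0.98.

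The second PDGFRB probe set gave the same order of extremes. It read 10.40, 6.80, 9.25, 7.10 and 7.99 in the metastatic tumours, against 6.92 to 8.05 with a median of 7.655 in the non-metastatic tumours. Its difference was 0.72 (SE 0.49, limma adjusted p = 0.373), and it was 0.195 without metastatic tumour 1 and 1.095 without metastatic tumour 2. The probe sets correlated at r = 0.97 over the 13 tumours, as a description. Within class A the differences were 0.53 and 0.71, with limma adjusted p of 0.652 and 0.607.

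Pericyte and vascular smooth muscle markers were set beside PDGFRB because those cells carry it. Over 9 markers (RGS5, CSPG4, MCAM, NOTCH3, KCNJ8, ABCC9, DES, ACTA2 and MYH11) the mean level was 7.29 to 8.45 in metastatic and 6.96 to 8.56 in non-metastatic tumours, and 0 of 9 passed. Metastatic tumour 1, with the highest PDGFRB, had the lowest pericyte level of its group at 7.29 and the lowest connective tissue level of all 13 tumours at 11.31. Metastatic tumour 3 had the highest pericyte level of its group at 8.45. Across the 13 tumours PDGFRB at its first probe set correlated with the pericyte level at r = 0.23 and with the connective tissue level at r = -0.42.

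PDGFRA, the receptor that binds the broadest range of PDGF dimers, was not separated by group. It read 8.99, 8.49, 8.38, 7.99 and 9.79 in metastatic tumours 1 to 5, against 7.59 to 9.99 with a median of 8.980 in non-metastatic tumours. The metastatic values all lay inside the non-metastatic range. The means were 8.73 ± 0.69 in metastatic and 8.87 ± 0.75 in non-metastatic tumours (SD), a difference of -0.14 (SE 0.38, 95% interval -0.94 to 0.67, limma adjusted p = 0.842). Within class A, where the 4 non-metastatic tumours read 8.92 to 9.99, the difference was -0.58 (SE 0.36, limma adjusted p = 0.404). Over 13 tumours r was 0.017 between PDGFRA and the first PDGFRB probe set, as a description.

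Among the ligands PDGFB, the B chain that binds both receptors, had the difference of smallest p among the 14 probe sets. At its first probe set it read 9.65, 9.16, 9.07, 9.03 and 8.92 in the metastatic tumours, against 8.39 to 8.95 with a median of 8.675 in the non-metastatic tumours. Of the metastatic tumours, 4 stood above all non-metastatic tumours, and metastatic tumour 5 lay just under the highest of them. The means were 9.17 ± 0.28 and 8.66 ± 0.21 (SD, metastatic and non-metastatic), a difference of 0.51 (SE 0.15, 95% interval 0.19 to 0.82), or 1.42-fold, with a limma adjusted p of 0.061 and an unadjusted p of 0.0038.

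The PDGFB result moved with spike-in class. Within class A the difference was 0.33 with a limma adjusted p of 0.251, and among the non-metastatic tumours alone class A exceeded class B by 0.37 (limma adjusted p = 0.060). The part of the spike-in class in the pooled difference was not tested. Quantile normalization gave 0.63 (limma adjusted p = 0.0366) and testing only the brighter probe sets gave 0.51 (limma adjusted p = 0.0455), so the call depended on those settings.

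The second PDGFB probe set showed 1 tumour apart from the rest. It read 8.70, 6.78, 6.84, 6.70 and 6.63 in metastatic tumours 1 to 5, against 6.39 to 7.19 with a median of 6.725 in non-metastatic tumours. The value of metastatic tumour 1 alone lay above the non-metastatic range, and only it and 1 non-metastatic value lay above the no-target range. The difference was 0.42 (SE 0.30, limma adjusted p = 0.397), and 0.0225 without metastatic tumour 1. The probe sets of PDGFB correlated at r = 0.67 over 13 tumours.

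PDGFA, the A chain, which binds PDGFRA, had a small difference with little spread. It read 6.53, 6.68, 6.72, 6.95 and 6.74 in the metastatic tumours, against 5.79 to 6.67 with a median of 6.380 in the non-metastatic tumours. Metastatic tumours 2 to 5 stood above all non-metastatic tumours, and metastatic tumour 1 did not. All of these values lie within the no-target range. The difference was 0.44 (SE 0.15, 95% interval 0.12 to 0.76, limma adjusted p = 0.101).

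Within class A the groups did not overlap for PDGFA, since the 4 non-metastatic tumours read 6.34 to 6.48. This held for 1 of the 14 probe sets, and 4.39% of all probe sets were higher in metastatic tumours without overlap in class A. The class A difference was 0.30 (SE 0.10, 95% interval 0.079 to 0.53, limma adjusted p = 0.139). Among non-metastatic tumours class A exceeded class B by 0.45 (limma adjusted p = 0.034), and over 13 tumours PDGFA correlated with the ACTB 3′ minus 5′ value at r = 0.59, with the platelet marker level at r = 0.74, with the mast cell level at r = 0.67 and with the pericyte level at r = 0.64. The parts of these in the result were not tested. Without non-metastatic tumour 2, the PDGFA difference of 0.50 passed (limma adjusted p = 0.0400).

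PDGFC and PDGFD, the ligands secreted in an inactive form that proteases cut, were both highest in metastatic tumours 1 and 3, the tumours of highest PDGFRB. PDGFC read 7.62, 6.39, 7.41, 6.02 and 6.24 in the metastatic tumours, against 5.21 to 7.19 with a median of 6.305 in the non-metastatic tumours. PDGFD read 9.90, 7.25, 9.61, 6.73 and 7.85 in the metastatic tumours, against 6.84 to 9.43 with a median of 8.745 in the non-metastatic tumours. In both genes the other 3 metastatic tumours fell within or below the non-metastatic range. The difference was 0.55 for PDGFC (SE 0.37, limma adjusted p = 0.366), and 0.33 without metastatic tumour 1. For PDGFD it was -0.12 (SE 0.57, 95% interval -1.35 to 1.11, limma adjusted p = 0.913). Within class A the differences were 0.16 for PDGFC and -0.30 for PDGFD (limma adjusted p = 0.856 and 0.849).

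The co-variation of PDGFRB with the PDGF ligand genes, PDGFA included, was read within groups, after each tumour's group mean was subtracted. It is a description over 13 tumours that share an array type and, in part, a spike-in class. PDGFRB at its first probe set correlated with PDGFD at r = 0.71, with PDGFC at r = 0.64, with PDGFB at r = 0.54 and 0.79 for its first and second probe sets, and with PDGFA at r = -0.011. The second PDGFB probe set stood apart in metastatic tumour 1, as given above. PDGFC and HGF gave r = 0.84 over 13 tumours and, without subtraction, r = 0.67 over the 9 tumours of class A. Every HGF value lay in the no-target range, as did all PDGFC values except 2 metastatic and 1 non-metastatic. Among non-metastatic tumours class A exceeded class B by 1.06 for PDGFC (limma adjusted p = 0.057) and by 1.06 for HGF (limma adjusted p = 0.0082). The part of the class in this correlation was not tested.

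**Figure D2:**
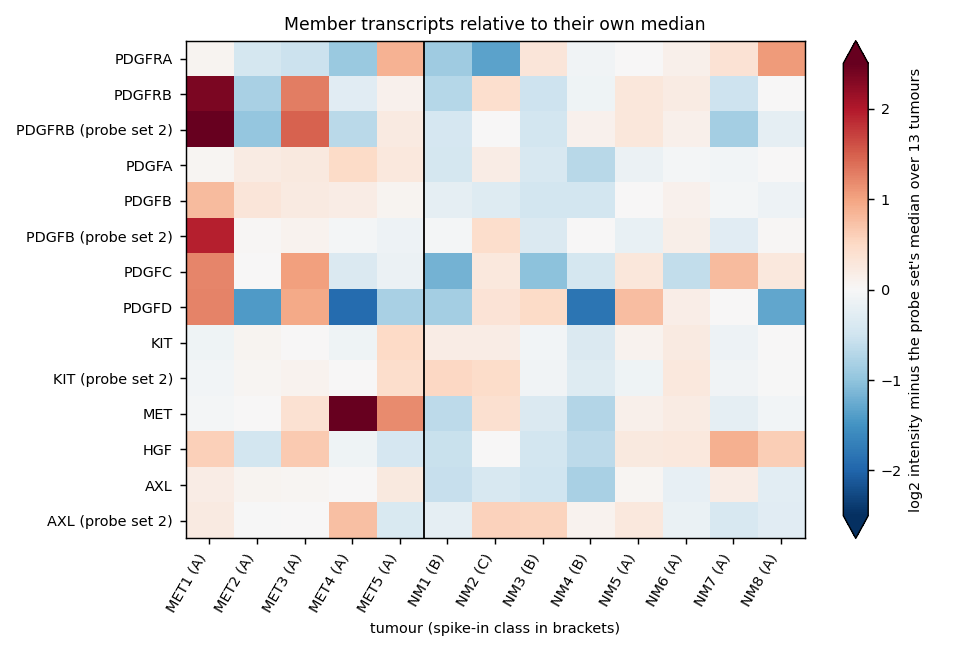
Deviation of each probe set (rows) from its median over the 13 tumours, in log2 units, with the 5 metastatic tumours as the left columns and the 8 non-metastatic tumours as the right columns. Metastatic tumours 1 and 3 are above the median in the PDGFRB, PDGFC and PDGFD rows, and metastatic tumour 4 in the MET row at 9.46.

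KIT was close to level across the tumours. At the first probe set it read 7.44, 7.62, 7.55, 7.44 and 8.04 in metastatic tumours 1 to 5, against 7.18 to 7.77 with a median of 7.590 in the non-metastatic tumours. Metastatic tumour 5 had the only value above the non-metastatic range. The means were 7.62 ± 0.25 in metastatic and 7.56 ± 0.20 in non-metastatic tumours (SD), a difference of 0.054 (SE 0.14, limma adjusted p = 0.829). The 95% interval ran from -0.24 to 0.35, or 0.845-fold to 1.28-fold.

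The second KIT probe set read 6.67, 6.78, 6.81, 6.73 and 7.16 in the metastatic tumours, against 6.40 to 7.25 with a median of 6.685 in the non-metastatic tumours. All its metastatic values lay in the no-target range, and 2 non-metastatic values lay above it. Metastatic tumour 5 was again the highest of its group, below non-metastatic tumours 1 and 2, and the difference was 0.0225 (SE 0.16, limma adjusted p = 0.941). The KIT probe sets correlated at r = 0.86 over 13 tumours. KITLG, which encodes stem cell factor, differed by 0.28 (SE 0.21, limma adjusted p = 0.429).

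Mast cell markers were set beside KIT because mast cells carry it. Over 7 measured markers the mean level was 6.45 to 7.39 in metastatic tumours and 5.91 to 7.64 in non-metastatic tumours. Here 0 of 7 passed, TPSB2 and TPSAB1 not being measured. Within class A the non-metastatic level was 6.24 to 6.32, below that of every metastatic tumour, and 0 of 7 passed. The highest levels were 7.39 in metastatic tumour 5, which had the highest value at the first KIT probe set, and 7.64 in non-metastatic tumour 2. Of the 7 markers only the mast cell protease gene CPA3, at 8.82, was highest of all 13 tumours in metastatic tumour 5. CMA1, FCER1A and GATA2 were there the highest of the metastatic tumours but under the highest non-metastatic value, and MS4A2, HDC and HPGDS were not the highest of the metastatic tumours. Skeletal muscle markers, 3 measured, also stood apart in that tumour, with a mean level of 9.71 against 6.02 to 7.27 in the other metastatic and 5.52 to 7.07 in the non-metastatic tumours. Over 13 tumours the first KIT probe set correlated with the skeletal muscle level at r = 0.68 and with the mast cell level at r = 0.50. The mast cell value was not particular, since r was 0.52 with the pericyte level, 0.51 with the platelet level and 0.45 with the endothelial level. With the macrophage level r was -0.52. The part of any of these cell types in the KIT values was not tested.

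MET had the only difference of 1 or more among the 14 probe sets. It read 6.35, 6.40, 6.78, 9.46 and 7.58 in metastatic tumours 1 to 5, against 5.66 to 6.81 with a median of 6.250 in the non-metastatic tumours. Metastatic tumours 4 and 5 stood above every non-metastatic tumour and above the no-target range, in which the other 11 values lay. The means were 7.31 ± 1.30 in metastatic and 6.24 ± 0.41 in non-metastatic tumours (SD), a difference of 1.08 (SE 0.43, 95% interval 0.15 to 2.01), with a limma adjusted p of 0.156. No fold is given, since all 8 non-metastatic values lay in the no-target range.

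The MET difference leaned on metastatic tumour 4, without which it was 0.54. Within class A it was 0.91 (SE 0.58, limma adjusted p = 0.417), and among non-metastatic tumours class A exceeded class B by 0.59 (limma adjusted p = 0.033). The epithelial marker level was 3.91 to 5.12 in metastatic and 4.49 to 6.12 in non-metastatic tumours, and it was 4.37 in metastatic tumour 4. KRT8, the 1 of 4 epithelial markers that passed, averaged 1.55 in metastatic and 4.88 in non-metastatic tumours (limma adjusted p = 0.047). All 5 metastatic readings of KRT8, 0.66 to 2.28, were under the lowest no-target value, and 6 of the 8 non-metastatic readings were inside the no-target range. KRT8 did not pass within class A (limma adjusted p = 0.072), and it passed in 3 of 13 fits that left out 1 tumour.

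HGF had the smallest difference of the 14 probe sets. It read 6.60, 5.56, 6.66, 5.90 and 5.59 in the metastatic tumours, against 5.35 to 6.89 with a median of 6.130 in the non-metastatic tumours. Every value lay in the no-target range. The difference was 0.011 (SE 0.29, 95% interval -0.61 to 0.63, limma adjusted p = 0.985). Within class A it was -0.45 (SE 0.27, limma adjusted p = 0.390). The non-metastatic tumours themselves divided by class, and read 6.25 to 6.89 in class A and 5.35 to 5.55 in class B, a difference of 1.06 (limma adjusted p = 0.0082). MET and HGF gave r = 0.016 over 13 tumours.

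AXL, a receptor of the TAM family, was read by probe sets that gave different patterns. The first read 6.79, 6.67, 6.65, 6.60 and 6.85 in the metastatic tumours, against 5.78 to 6.78 with a median of 6.265 in the non-metastatic tumours. The metastatic tumours were tightly grouped (SD 0.10) at the upper end of the non-metastatic range, which metastatic tumours 1 and 5 exceeded. The difference was 0.43 (SE 0.16, 95% interval 0.090 to 0.77, limma adjusted p = 0.128), and within class A it was 0.17 (limma adjusted p = 0.435). Non-metastatic tumours of class A exceeded those of class B by 0.57 (limma adjusted p = 0.036). The part of the spike-in class in the MET, HGF and AXL values was not tested.

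The second AXL probe set read 6.53, 6.30, 6.31, 7.07 and 5.93 in the metastatic tumours, against 5.90 to 6.89 with a median of 6.275 in the non-metastatic tumours. Metastatic tumour 4 alone exceeded the non-metastatic range. The difference was 0.067 (SE 0.22, limma adjusted p = 0.866), and the AXL probe sets correlated at r = -0.19 over 13 tumours. All values of both probe sets lay in the no-target range.

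**Figure D3:**
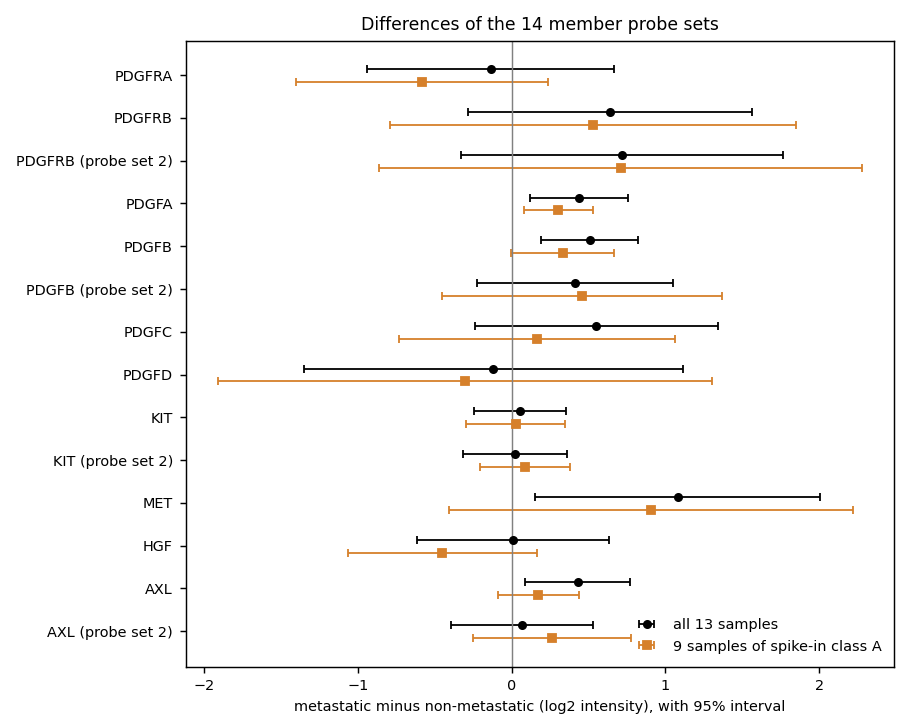
Difference, metastatic minus non-metastatic, in log2 intensity for each of the 14 probe sets, with 95% intervals from limma, over all 13 tumours and within the 9 of spike-in class A. The largest pooled difference is that of MET at 1.08, and the HGF difference is 0.011 over all tumours and -0.45 within class A.

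The members were also described by their spread and level over the tumours. The range over the 13 tumours was 2 or more for 7 of the 14 probe sets, where 19.2% of all probe sets had such a range. The SD was larger in metastatic tumours for 9 of 14, against 32.8% of all. Both group means lay at or under the highest no-target value for 7 of 14, against 52.4% of all, and for PDGFA, PDGFC, HGF and AXL this held at every probe set. Between non-metastatic tumours of class A and class B, 4 of 14 passed (PDGFA, MET, HGF and the first AXL probe set, all higher in class A), where 15.8% of all probe sets were higher.

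Other genes of the same pathways were taken from 6 lists. Of 60 listed genes 53 were measured, and 5 of them passed, 1 higher and 4 lower in metastatic tumours, which is 9.43% of the 53 against 5.35% of all named genes. The median differences of the lists ran from -0.060 to 0.46. Here 0 of 7 genes of PDGF processing and co-receptors, 0 of 4 AXL partners and the KIT ligand passed.

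Among the related receptors and their ligands 2 of 11 were lower. IL34, a ligand of CSF1R, averaged 8.13 ± 0.29 in metastatic and 9.15 ± 0.35 in non-metastatic tumours (SD), and fell by 1.02 (SE 0.18, limma adjusted p = 0.0094). The groups did not overlap for IL34, and it also passed within class A, where it fell by 0.95 (limma adjusted p = 0.039), and in 13 of 13 fits that each left out 1 tumour. VEGFB, a ligand of FLT1, averaged 10.43 ± 0.41 and 11.27 ± 0.40 (SD, metastatic and non-metastatic), and fell by 0.84 (SE 0.22, limma adjusted p = 0.043). Its other probe set did not pass, with a difference of 0.091, and within class A the VEGFB difference was -0.56 (limma adjusted p = 0.206).

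Of 9 MET and HGF partners 1 was lower: SPINT2, an inhibitor of the proteases that activate HGF, averaged 9.33 ± 0.41 in metastatic and 10.09 ± 0.35 in non-metastatic tumours (SD). It fell by 0.76 (SE 0.21, limma adjusted p = 0.0496), while its other probe set, with a difference of 0.20, did not pass. Of 21 measured genes of shared intracellular signalling, 2 passed in opposite directions, and they encode the parts of 1 enzyme. PIK3CA, the catalytic subunit of PI 3-kinase, averaged 7.43 ± 0.70 in metastatic and 6.38 ± 0.39 in non-metastatic tumours. It rose by 1.05 (SE 0.27, limma adjusted p = 0.042). All its non-metastatic values, 5.85 to 6.88, and that of metastatic tumour 2, 6.33, lay in the no-target range. PIK3R1, its regulatory subunit, averaged 9.32 ± 0.56 in metastatic and 10.46 ± 0.56 in non-metastatic tumours and fell by 1.14 (SE 0.29, limma adjusted p = 0.040). Its 2 other probe sets did not pass, with differences of -0.60 and -0.32.

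The calls depended on the tumours used: without the 3 tumours of class B 0 of the 53 genes passed, IL34 included. VEGFB, SPINT2, PIK3R1 and PIK3CA passed in 3, 2, 4 and 3 of the 13 fits that each left out 1 tumour, and 0 of the 4 passed within class A. The direct partners did not pass: GAS6, the AXL ligand, differed by -0.073 (limma adjusted p = 0.869) and CSF1R by -0.49 (limma adjusted p = 0.397). MERTK, a receptor related to AXL, differed by 0.59 (limma adjusted p = 0.325). Of the MERTK values only that of metastatic tumour 3, 8.05, lay above the no-target range.

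**Figure D4:**
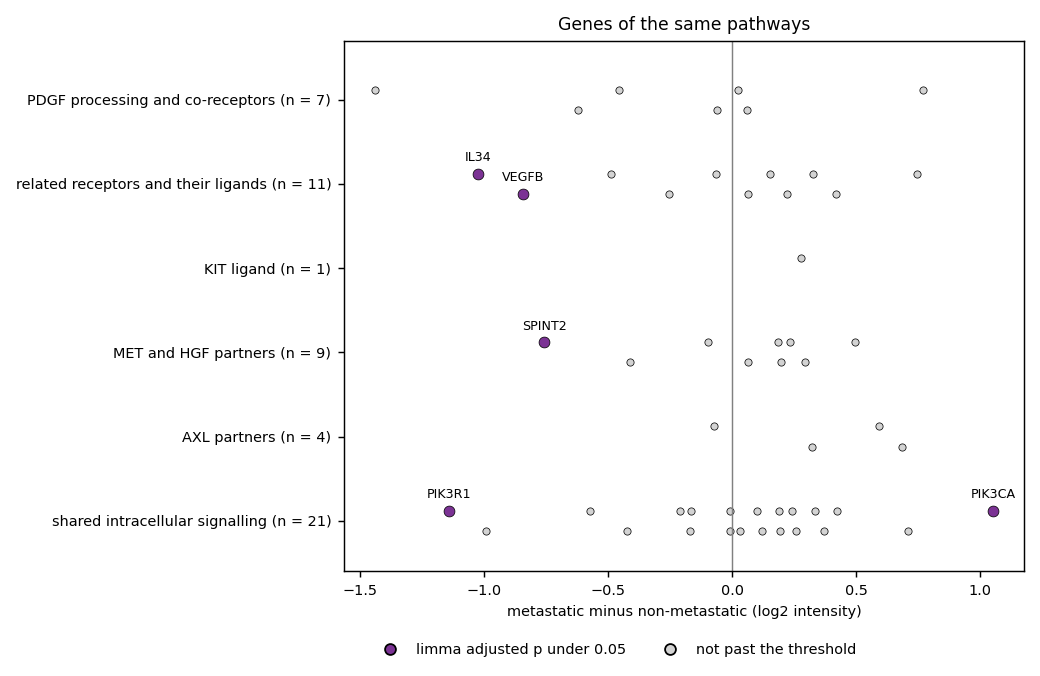
Difference, metastatic minus non-metastatic, in log2 intensity for the 53 measured genes of the 6 pathway lists, 1 point per gene. The 5 genes that passed are named: PIK3CA lies at 1.05, and IL34, VEGFB, SPINT2 and PIK3R1 lie below 0.

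The genes most like the receptors were sought among 15845 named probe sets of at least median level, by the correlation over 13 tumours after group means were subtracted. PDGFRB was closest to AVPR1A (r = 0.92), ADAMTS12 (r = 0.91) and TWIST2 (r = 0.89), and PDGFRA to TRIM2 (r = 0.93), EMC4 (r = 0.91) and MTHFD1 (r = 0.90). KIT was closest to LIG3 (r = 0.95), PPIE (r = 0.86) and NT5E (r = 0.84). Metastatic tumour 5, highest at the KIT probe set used, was the highest of the 13 in each of these. Metastatic tumour 1, highest in PDGFRB, was likewise the highest in AVPR1A, ADAMTS12 and TWIST2. For MET the closest were ZW10 (r = 0.94), ARHGAP18 (r = 0.94) and ACTR3 (r = 0.89), and metastatic tumour 4 was the highest of the 13 in each, with ZW10 at 10.67. For AXL they were SELENOO, ARHGAP35 and ACSS1 (each r = 0.93). The AXL probe set used here lay wholly in the no-target range. AXL and these 3 genes were each lowest in the tumours of spike-in class B, with ARHGAP35 at 8.59 to 8.63 there and at 8.94 or more elsewhere. The part of the class in this likeness was not tested. These are descriptions over a search of many genes, with no test.

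Genes that lie beside the members on the chromosome were read in the tumours where a member stood highest. That choice was made after the values were seen, as was widening the window from 15 measured genes on each side to at most 30. Gene order came from the RefSeq table of assembly UU_Cfam_GSD_1.0. In metastatic tumour 4, where MET was highest, 5 of the 6 nearest measured genes were also the highest of the 13 tumours. CAV1, which encodes the coat protein of caveolae, read 12.64 there, against 9.97 to 11.89 in the other metastatic and 11.4 to 12.45 in the non-metastatic tumours. TES read 10.42 and exceeded the median of the other 12 tumours by 1.575, and CAV2, CAPZA2 and ST7 exceeded it by 0.56 to 0.98, while WNT2 did not stand out.

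Over the wider window, which held 30 genes on one side of MET and 18 on the other, 10 of 48 were highest in metastatic tumour 4. This compares with 18.9% of 275 measured genes of chromosome 14 and 8.36% of all 15115 named genes. In metastatic tumour 1, where the second PDGFB probe set was highest, 15 of the 30 measured genes on one side of PDGFB were the highest of the 13 tumours, and 0 of the 30 on the other side. In the window of 15 genes these counts were 9 and 0. Among them CBX6 exceeded the median of the other 12 tumours by 2.20, TOMM22 by 1.86 and KDELR3 by 1.83. The share of genes highest in that tumour was 7.0% of 514 measured genes of chromosome 10 and 6.73% of all named genes.

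The same count gave 7 of 60 around PDGFRB in metastatic tumour 1 (17.3% of chromosome 4) and 13 of 60 around KIT in metastatic tumour 5 (17.0% of chromosome 13). PDGFRA, KIT and KDR, a VEGF receptor, are adjacent protein-coding genes on chromosome 13, and in metastatic tumour 5 the first KIT probe set was the highest of the 13 tumours and the second was not, while PDGFRA (9.79) and KDR (10.09) were each the second highest.

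**Figure D5:**
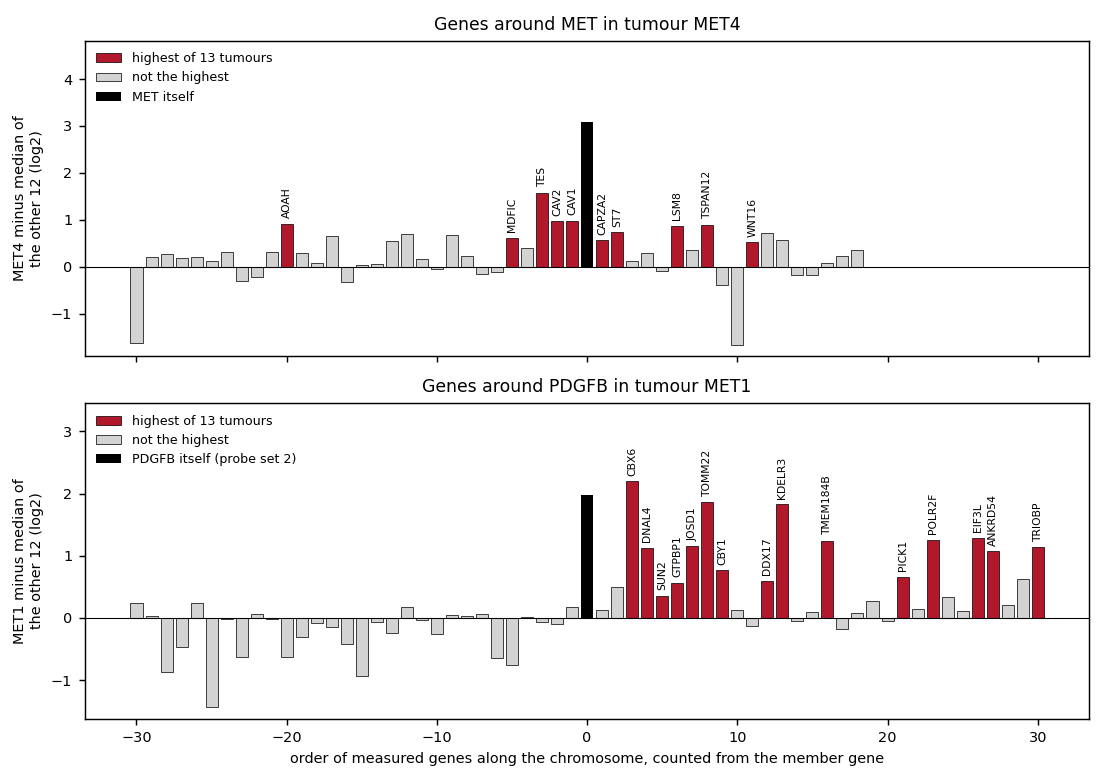
Log2 intensity of measured genes on both sides of MET in metastatic tumour 4 (MET4, upper panel) and of PDGFB in metastatic tumour 1 (MET1, lower panel), each minus the median of the other 12 tumours, in order along the chromosome; named bars are genes whose value is the highest of the 13 tumours. Around PDGFB such genes number 15 of 30 on one side and 0 of 30 on the other.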

How the data were processed

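The authors deposited 1 table of log2 intensities for 43035 probe sets and 13 samples. Their range, 0 to 14.33, is the basis for reading them as log2; for software and normalization the steps were not given in the sources used here. Per the labels' protocols, RNA was purified on columns and labelled with biotin by 1 cycle of in vitro transcription. Sample medians were 6.71 to 6.94, and the number of arrays limits the precision. Groups came from the labels.

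Values were used as deposited. After 111 control probe sets were left out, limma 3.58.1 (R 4.3.3) was fitted to 42924 probe sets with 1 term for group, and two-sided p-values were adjusted by Benjamini-Hochberg against a threshold of 0.05. The fit was tested on simulated data. Errors of differences are SE. Gene symbols came from the platform annotation (1 symbol for 29264 probe sets, several for 439, none for 13332), and all 10 member genes were found in the RefSeq table with the same symbol. Some probe sets may bind related transcripts. Spike-in classes were set by a mean 3′ signal of 6 and a 3′ minus 5′ difference of 2. For a listed gene the probe set of highest mean was used. Tables and plots used Python 3.11.15.

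The members, lists and tests were chosen with earlier results of these data known. Genes named were all members, list genes that passed, the partners KITLG, GAS6, CSF1R and MERTK, and the 3 genes most like each receptor; other genes, including CPA3, KRT8 and chromosomal neighbours, were named after their values were seen. Alternatives were other normalization, filters, priors, weights, blocks, covariates and samples. Coordinates were used to order genes along the chromosomes, and sequences were not used here.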

Additional observations from a re-analysis of the deposited data

Results flagged for a closer look

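Of 28 sets of values tested for a single tumour far from the rest of its group, 2 stood out, and chance flags about 1 group in 20. Metastatic tumour 1 read 8.70 at the second PDGFB probe set, and its gap to the nearest of the other metastatic tumours was 0.899 of the group's range. Metastatic tumour 5 read 7.16 at the second KIT probe set, with a gap of 0.714 of the range. That reading equals the highest no-target value. The same tumour was the highest of all 13 at the first KIT probe set but not at the second.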

How the results depend on the processing

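Of the 14 member probe sets, 1 passed under quantile normalization, 1 with only probe sets of at least median level (where 6 of the 14 entered the fit), and 0 to 1 when 1 tumour was left out. The number of all probe sets that passed, 2104, was 4011 with sample weights, 1192 within spike-in class A, 207 without class B and 856 to 4478 when 1 tumour was left out. Of the pathway genes, 5 passed, against 2 under quantile normalization, 2 with the class as a block, 2 with the ACTB value as a covariate, 1 within class A, 0 without class B and 1 to 7 when 1 tumour was left out. With the replicate number as a block 733 probe sets and 1 pathway gene passed, PDGFRA was 0.21 and the second AXL probe set -0.13. Same-numbered tumours correlated at -0.0086 to 0.078 in their deviations, and 1 metastatic tumour correlated best with its own number. Correlations of whole arrays cannot decide whether the numbers pair tumours, and the labels do not say.

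Differences near 0 changed sign. HGF was -0.065 under quantile normalization, -0.13 with sample weights, -0.45 with the class as a block and within class A, -0.35 without class B and -0.036 with the ACTB covariate. PDGFD was 0.069 with sample weights. The second KIT probe set was -0.043 under quantile normalization, -0.002 without class B and -0.022 with the covariate, the first was -0.004 without class B, and the second AXL probe set was -0.023 under quantile normalization. When 1 tumour was left out the ranges were -0.40 to 0.0475 for PDGFRA, -0.53 to 0.27 for PDGFD, -0.051 to 0.099 and -0.060 to 0.086 for KIT, -0.14 to 0.14 for HGF and -0.094 to 0.19 for the second AXL probe set. The causes were not tested. The ACTB difference was 0.19 to 0.50 when 1 tumour was left out.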
